A study of Mus musculus with 31 samples.

Results

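The genes described here encode the proteins of the cytosolic ribosome, measured in liver RNA of 31 BXD mouse strains. Members were the probes that the platform annotation gives to a single gene with a symbol made of Rpl or Rps, a number and at most 1 of the letters a, l, x or y, together with Rplp0, Rplp1, Rplp2, Rpsa and Fau. Kinases of the Rps6k family and symbols of pseudogenes were left out. The rule found 74 of the 21765 probes that had a value on every array, and these 74 stand for 66 of the 15095 named genes, 41 of the large subunit (45 probes) and 25 of the small subunit (29 probes). Male mice of each BxD/TyJ recombinant inbred strain, whose founders were C57BL/6J and DBA/2J, gave whole liver at 8 weeks of age, and the RNA of 3 mice was pooled for a strain. Each pool, labelled with Alexa Fluor 647, was hybridised once on a 2-colour array against 1 pool of 9 male C57BL/6J livers of the same age, labelled with Alexa Fluor 555. No dyes were exchanged, no strain had a second array, and the C57BL/6J pool is the only control RNA. Values are ratios read as log2 of strain over C57BL/6J pool, the likely scale and direction, so a value compares 1 probe between 2 RNAs and does not give a level. For that reason the array cannot show whether liver markers were present, and no gene's level is set against another's.

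A ribosome joins a small subunit, which reads the mRNA, to a large subunit, which forms the peptide bond. Most of their proteins are needed in equal numbers, and the genes are spread over most chromosomes. Their mRNAs begin with a C followed by a run of pyrimidines, the 5′ terminal oligopyrimidine or TOP sequence, through which the TOR pathway and the protein Larp1 control their translation. In liver, ribosomal protein mRNAs are among the abundant messages of hepatocytes, and ribosome content follows feeding and growth.

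Promoters are shown for the 4 members that correlated most, on average, with the other members across strains, and the 4 that correlated least, among the 54 member genes (33 large, 21 small) that have an entry in RefSeq's promoter table for GRCm38.p6. Each line gives 100 bases, from 70 before the annotated start to 30 from it on. Rpl35a had 3 entries in that table, and Rpl3l, Rpl34 and Rpl22 had 2 each. For these genes the entry shown is the one whose TOP-like run, defined next, lay nearest the start, or the first entry where none had a run. Capitals mark the TOP-like run, a C followed by at least 6 pyrimidines within 30 bases of the start on the gene's own strand. They also mark the ETS factor motif CCGGAAG on either strand. A run needed its first 7 bases inside the window. A stretch that met the window's end sooner, as in the Rpl37a line, was not counted. The first 4 are Rps28 at chr17:33824533-33824632 on the minus strand, Rpl37a at chr1:72711190-72711289 on the plus strand, Rpl35a at chr16:33056412-33056511 on the plus strand and Rps7 at chr12:28635924-28636023 on the minus strand. The last 4 are Rpl3l at chr17:24727756-24727855 on the plus strand, Rpl34 at chr3:130730369-130730468 on the minus strand, Rpl22 at chr4:152325656-152325755 on the plus strand and Rpl39l at chr16:10170158-10170257 on the plus strand.
Rps28: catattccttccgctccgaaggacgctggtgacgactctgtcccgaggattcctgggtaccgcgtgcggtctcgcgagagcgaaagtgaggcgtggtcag
Rpl37a: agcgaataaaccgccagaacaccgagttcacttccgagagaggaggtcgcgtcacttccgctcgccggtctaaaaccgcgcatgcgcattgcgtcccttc
Rpl35a: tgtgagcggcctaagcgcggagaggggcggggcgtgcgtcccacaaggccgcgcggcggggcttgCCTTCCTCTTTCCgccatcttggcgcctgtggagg
Rps7: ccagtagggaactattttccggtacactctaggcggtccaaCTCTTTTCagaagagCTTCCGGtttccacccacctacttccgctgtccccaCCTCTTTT
Rpl3l: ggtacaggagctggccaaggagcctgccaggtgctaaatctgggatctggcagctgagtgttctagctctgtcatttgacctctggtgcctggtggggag
Rpl34: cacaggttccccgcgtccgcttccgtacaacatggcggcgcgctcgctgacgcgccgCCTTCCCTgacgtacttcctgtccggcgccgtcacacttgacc
Rpl22: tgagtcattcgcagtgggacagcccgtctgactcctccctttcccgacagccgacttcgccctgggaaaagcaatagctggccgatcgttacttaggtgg
Rpl39l: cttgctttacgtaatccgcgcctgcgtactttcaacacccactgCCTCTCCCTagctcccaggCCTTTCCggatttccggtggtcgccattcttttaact
A TOP-like run was found for 33 of the 54 member genes (61.1%), 20 large and 13 small, against 8026 of the 27025 genes in the table (29.7%). Of the 8 promoters shown, that of Rpl35a has a run starting 5 bases before the annotated start, and Rps7, Rpl34 and Rpl39l also have runs, so both ends of the order hold promoters with and without one. Rps7 carries the reverse complement of CCGGAAG as well. That motif, searched over the whole 300 bases on both strands, was found for 24 of 54 member genes (44.4%) and 9.93% of all. For the run and the motifs alike, a gene was counted if any of its entries held it. The Sp1 motif GGGCGG was in 59.3% of members and 38.2% of all, the YY1 motif AAGATGG in 14.8% and 7.28%, the E-box CACGTG in 11.1% and 8.09%, and TATAAA in 11.1% and 15.7%. The members' promoters were richer in G and C, with a median of 57.5% against 52.7%. The motif shares were matched neither for this nor for the number of entries per gene. Member genes with a TOP-like run had a median mean r of 0.34 with the other members, against 0.16 for the 21 genes without one. The other motifs did not share this pattern. With and without them the medians were 0.28 and 0.34 for CCGGAAG, 0.29 and 0.32 for GGGCGG and 0.33 and 0.30 for AAGATGG. For CACGTG they were 0.305 and 0.305, and for TATAAA 0.17 and 0.31. These differences were not tested. Annotated starts can lie away from the true one, and a run outside the window or cut short by its end was not counted.

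The array carried 23040 features, of which 1275 were empty on every array. Every array had been brought to the same distribution, between -3.84 and 3.65 with a median of -0.001, so a shift of a whole array cannot be seen, and precision is limited by how many arrays there are. The arrays of strains 23, 28, 40 and 42 had median correlations between 0.06 and 0.37 with the other arrays, against at least 0.57 for the remaining 27. Probes whose identifier is a multiple of 8 centred on -0.58 in the panel mean, and the others on 0.04. They make up 17 of the 74 member probes (23.0%) and 11.6% of all probes, so their values are given with and without a correction that sets the median of these probes and that of the rest to 0 on each array, called the place correction.

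Most ribosomal protein probes had a higher mean over the panel than the C57BL/6J pool. In limma's test of the mean over 31 strains against 0 (Benjamini-Hochberg adjusted p under 0.05 over all probes), 42 of 74 member probes were called higher, 12 lower and 20 were not called. The 54 calls in either direction stand beside 75% of all probes, so the members were called about as often as the array. Of all probes, 37.4% were called higher and 37.6% lower, while the members' shares were 56.8% and 16.2%. A like tilt was seen elsewhere: of 75 probes of oxidative phosphorylation genes, 58.7% were higher and 21.3% lower, with a median panel mean of 0.16. The median panel mean was 0.20 for members and 0.001 for all probes. With a stricter test that asks for a mean beyond 0.2, 29 members were higher and 6 lower, where 14.6% and 18.6% of all probes were called. The C57BL/6J pool's own spread and any effect of the dyes stay in these means, and in whole liver a change in the number of cells of a type cannot be told apart from a change in RNA per cell. The p-values rest on the spread over the 31 strains. No strain had a repeat array, so this spread mixes differences between strains with differences between arrays.

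Among large subunit probes 27 were higher, 7 lower and 11 not called, with a median panel mean of 0.17. The acidic stalk proteins, which recruit elongation factors to the large subunit, were all higher. Rplp1 lay between 0.43 in strain 39 and 1.68 in strain 20, with a median of 0.84, so every strain was above the C57BL/6J pool, and its mean of 0.96 ± 0.07 (SE, n = 31; 1.95-fold) was the highest of the members as deposited (limma adjusted p = 3.8e-14). Rplp2 ranged from -0.03 in strain 40 through a median of 0.62 to 1.05 in strain 9, above 0 in 30 of 31 strains, with a mean of 0.64 ± 0.05. Rplp0, the base of the stalk, was measured by 2 probes, and both were called higher, at 0.32 ± 0.04 and 0.16 ± 0.04.

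Other large subunit proteins had means of the same order. Rpl10a, the protein of the stalk beside the tRNA exit site, had its lowest value of 0.21 in strain 12, a median of 0.77 and its highest, 1.49, in strain 20, and its mean was 0.80 ± 0.06 (1.74-fold, limma adjusted p = 2.2e-14). Rpl27 stood at 0.71 ± 0.06, Rpl19 at 0.70 ± 0.07, Rpl28 at 0.68 ± 0.05 and Rpl37 at 0.65 ± 0.05. In each of these 4 probes all 31 strains were above 0. The whole member set held 8 such probes (10.8%), and 3.6% of all probes were above 0 in every strain. Rpl5 and Rpl11, which bind 5S rRNA and, outside the ribosome, Mdm2, were higher at 0.26 ± 0.06 and 0.46 ± 0.06 (named for their role after their values were seen).

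**Figure D1:**
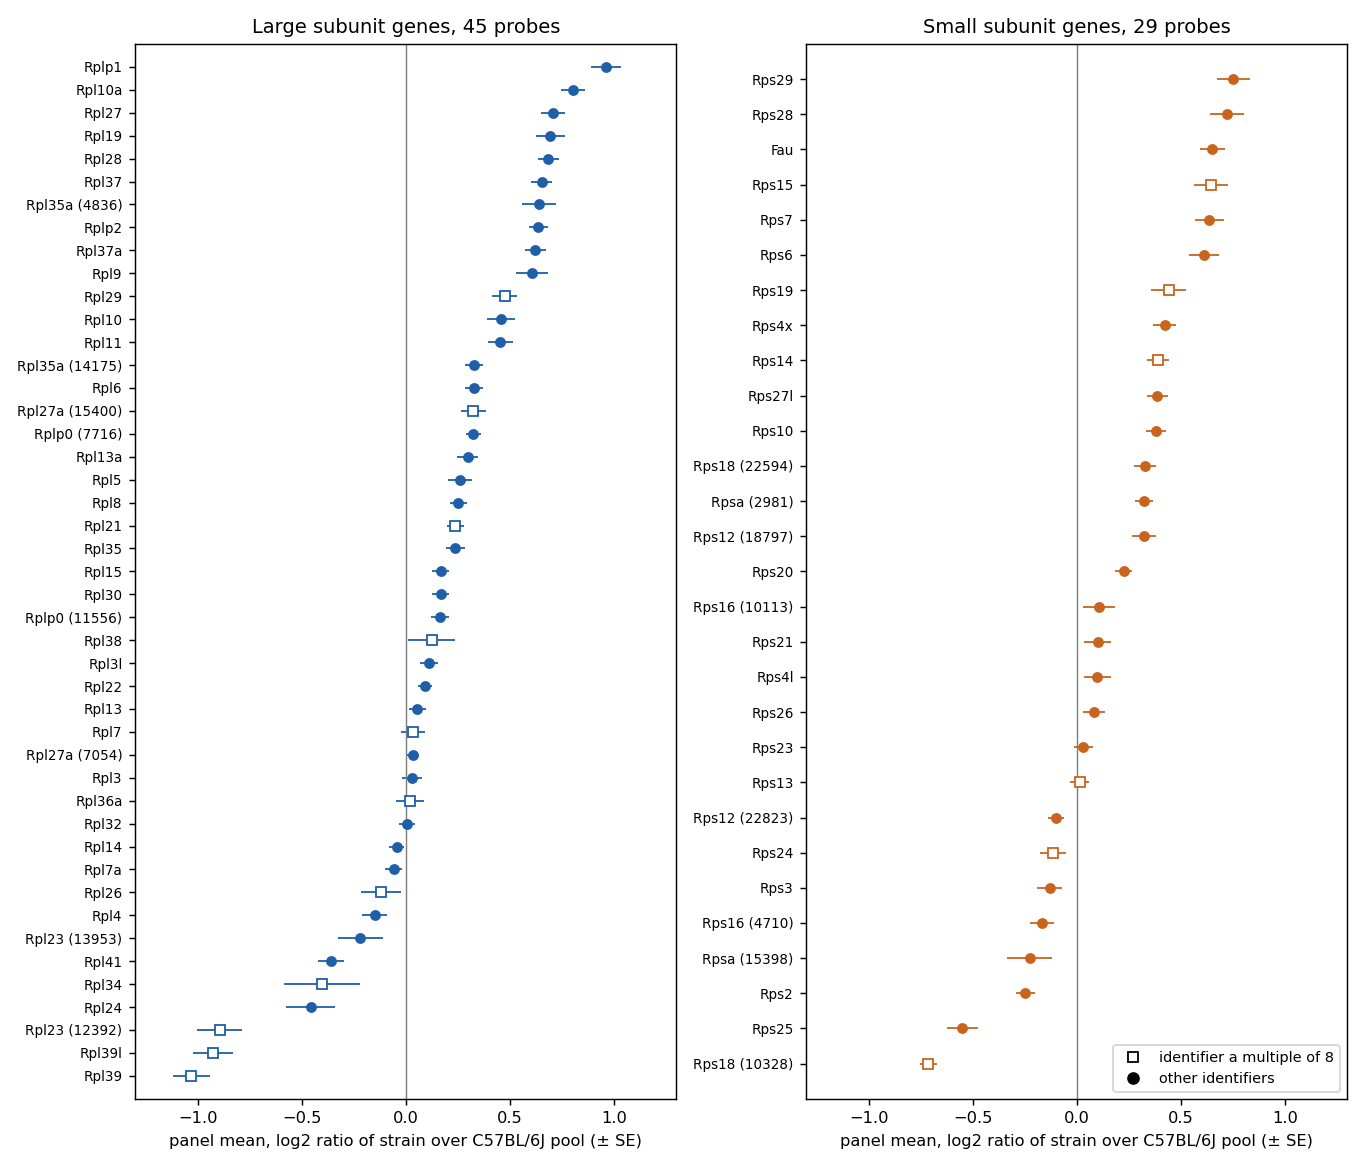
Panel mean (x axis, log2 ratio of strain over C57BL/6J pool) ± SE over 31 strains for each member probe, large subunit left and small subunit right, with probe identifiers where a gene has 2 probes. Open squares are probes at multiples of 8, and the 5 lowest large subunit probes, from Rpl39 at -1.03 to Rpl34 at -0.40, include 4 of them.

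Small subunit probes showed the same picture, with 15 higher, 5 lower and 9 not called and a median panel mean of 0.22. Rps29, a zinc-binding protein of the subunit's head, had its lowest value, -0.11, in strain 24, a median of 0.64 and its highest, 1.89, in strain 22, with 29 strains above 0 (mean 0.75 ± 0.08). Rps28 had -0.15 in strain 40 at the low end, a median of 0.61 and 1.81 in strain 15 at the high end (mean 0.72 ± 0.08). Both spread widely, and in both no more than 2 strains lay below the C57BL/6J pool. Fau, which is made as a fusion of a ubiquitin-like protein with Rps30, was above 0 in all 31 strains (0.65 ± 0.06). Rps6, the substrate of S6 kinase in TOR signalling, had a mean of 0.61 ± 0.07 and lay below 0 in 2 strains, with -0.22 in strain 12 as its lowest and 1.44 in strain 22 as its highest value. Rps15, at a multiple of 8, had 0.65 ± 0.08 as deposited and 1.22 after place correction.

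The lower members were led by probes at multiples of 8. Rpl39, one of the smallest proteins of the large subunit, which lines the exit tunnel, had the lowest mean, -1.03 ± 0.09, with -2.11 in strain 28, a median of -1.04 and 0.41 in strain 40, its only strain above 0. The probe 12392 of Rpl23 had -0.89 ± 0.11 and the probe 10328 of Rps18 had -0.71 ± 0.04. The Rps18 probe was the only member below 0 in all 31 strains, where 4.48% of all probes were. These 3 probes are all at multiples of 8, and place correction moved them to -0.46, -0.32 and -0.14. Outside such places, Rps25 stood at -0.55 ± 0.08 (limma adjusted p = 5.3e-08) and was below 0 in 28 strains, Rpl24 at -0.46 ± 0.12, Rpl41, a very short basic peptide of the large subunit, at -0.36 ± 0.06, Rps2 at -0.25 ± 0.05 and the probe 4710 of Rps16 at -0.17 ± 0.06. Rpl24 lay between -2.54 (strain 23) and 0.39 (strain 22), and without strains 23, 28, 40 and 42 its mean was -0.26.

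The place correction changed the call or the sign of several members. Of the 17 member probes at multiples of 8, 6 were called higher, 5 lower and 6 not called, where 6.40% of all probes at such places were higher and 84.1% lower. Of the 57 at other places, 36 were higher and 7 lower, against 41.5% and 31.5% of all probes there. Place correction turned Rps24 (-0.11 as deposited, 0.46 corrected) and Rpl26 (-0.12 and 0.46), neither of which was called before, into higher calls. It also changed Rpl34 from -0.40, just past the threshold (limma adjusted p = 0.047), to 0.17 with no call. Leaving out 1 strain at a time, Rpl34 lost its call in 23 of 31 cases. Rpl38, Rpl7, Rpl36a and Rps13 had means between 0.01 and 0.12 without a call as deposited, and between 0.59 and 0.70 with a call after correction. Among probes at other places, which the correction moves down slightly, Rpl3l (0.08, limma adjusted p = 0.11) and Rpl22 (0.06, adjusted p = 0.12) lost their calls. Rpl7a (-0.09), Rps3 (-0.17), probe 13953 of Rpl23 (-0.25) and probe 15398 of Rpsa (-0.26) were then called lower, with adjusted p-values of 0.035, 0.013, 0.038 and 0.029. The order of the highest means changed as well: after correction Rps15 (1.22), Rpl29 (1.05), Rps19 (1.02) and Rps14 (0.96), all at multiples of 8, stood above Rplp1 (0.93), where as deposited they had 0.65, 0.48, 0.44 and 0.39. In all, 46 members were then higher and 15 lower, while 37% and 36.9% of all probes were.

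The spread between strains was larger for members than for the array as a whole. The median SD over strains was 0.33 for member probes, 0.32 for the large and 0.33 for the small subunit, against 0.24 for all probes and 0.31 for those of oxidative phosphorylation genes, and 59 of 74 members lay above the median of all probes. This difference was not tested, and with 1 array per strain the spread between strains cannot be told apart from that between arrays. An SD over 0.5 was seen for 10 members (13.5%), where 7.27% of all probes had one. Without strains 23, 28, 40 and 42 the medians were 0.30 for members and 0.20 for all probes.

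The members with the widest spread included some that moved with the rest, Rpl38 and Rpl26, and some that did not. Rpl34 had the largest SD, 1.09, from -1.56 in strain 22 through a median of -0.65 to 3.65 in strain 32, which is the highest value any probe can take on an array. Rpl24 (0.69), Rpl38 (0.67), probe 13953 of Rpl23 (0.65), probe 15398 of Rpsa (0.64), probe 12392 of Rpl23 (0.64), Rpl39l (0.57) and Rpl26 (0.57) followed. Single arrays carried much of this in several of them. Probe 13953 of Rpl23 had -3.49 in strain 16, a median of -0.13 and 0.61 in strain 13, and its mean of -0.22 was not called, and it was called lower without strain 16 (-0.11) or without strain 13 (-0.24). Probe 15398 of Rpsa, a protein of the small subunit also known as a laminin receptor, had 2.08 in strain 8 and a median of -0.27. Its mean of -0.23 was not called, and it was called lower without strain 8 (-0.30) or without any 1 of strains 20, 28, 38, 40 and 42. Rpl39l fell to an SD of 0.19, and probe 12392 of Rpl23 and Rpl24 to 0.40, without the 4 arrays that stood apart, while Rpl38 (0.70) and Rpl26 (0.59) kept their spread. The smallest SDs were those of probe 7054 of Rpl27a (0.17), Rpl22 (0.18), probe 7716 of Rplp0 (0.19) and Rpl32 (0.20).

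Across the 31 strains the members of both subunits co-varied. With the probes of a gene averaged, the mean Pearson r over the 2145 pairs of the 66 genes was 0.27, against 0.002 over all pairs of the 15095 named genes on the array. Within the small subunit mean r was 0.31 (300 pairs), within the large subunit 0.25 (820 pairs) and between subunits 0.28 (1025 pairs). An r above 0.5 was found in 25.5% of the member pairs and in 3.44% of all pairs. The first principal component of the members held 37.8% of their variance, with 61 of 66 genes on its positive side, and that of all genes held 20.8%. All pairs share the same 31 arrays, so these values describe the panel and carry no p.

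**Figure D2:**
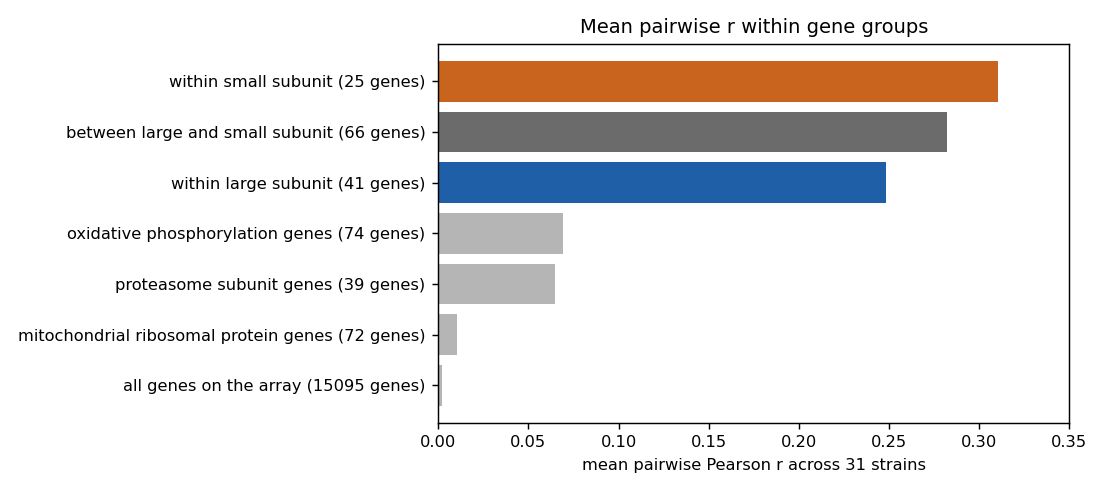
Mean pairwise Pearson r across 31 strains (x axis) within and between the subunits, and within other gene groups and all genes on the array, with the number of genes in each. The bars of the ribosomal protein groups end between 0.25 and 0.31 and those of the other groups at or below 0.07.

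Other multi-protein complexes measured on the same arrays had lower values. Mean r was 0.01 within 72 genes of mitochondrial ribosomal proteins, 0.06 within 39 genes of proteasome subunits and 0.07 within 74 genes of oxidative phosphorylation. Between cytosolic ribosomal protein genes and these groups it was 0.05, 0.11 and 0.11. The difference between groups was not tested. Distance between probes was counted in places by probe identifier, not by position on the array. Among the members, r was 0.44 for the 32 probe pairs within 8 places of each other. It was 0.23 for the 192 pairs 9 to 1000 places apart and 0.23 for the 2469 pairs farther apart. All probes within 8 places of each other had a mean r of 0.06. The pairs with the highest r, Rps15 with Rps6 (r = 0.92) and Rpl35a with Rps28 (r = 0.91), have probes with adjacent identifiers. In the next, Rps28 with Rps7 (0.87), the identifiers lie 4798 apart. Mean r was 0.24 between member probes away from multiples of 8 and 0.27 between those at multiples of 8, where all probes had 0.006 and 0.18.

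The genes that followed the rest most closely came from both subunits. Mean r with the other 65 members was highest for Rps28 (0.48), Rpl37a (0.47), Rpl35a (0.46), Rps7 (0.46), Rps6 (0.45), Rpl27 (0.45), Rps15 (0.45) and Rps29 (0.44), and the promoters of the first 4 are those shown above. Rps28, in which variants cause Diamond-Blackfan anaemia in humans, was positively correlated with 60 of the 65 others. Rpl37a, a zinc-binding protein of the large subunit, had a far smaller SD than Rps28 (0.28 against 0.47) and was above 0 in all strains, from 0.13 in strain 12 to 1.28 in strain 5. A score over the other members, the mean of their values after each was centred on its median over strains, had r = 0.90 with Rps28 and 0.89 with Rpl37a. Of the 66 members, 41 (62.1%) had r above 0.5 with the score of the others and 26 (39.4%) above 0.7. Of the 15029 other genes, 4.11% and 0.765% had so.

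At the other end of the order stood genes of both subunits, more of them large. Mean r was lowest for Rpl39l (-0.14), Rpl22 (-0.10), Rpl34 (-0.07), Rpl3l (-0.04), Rps2 (-0.03), Rpl41 (0.01), Rpl23 (0.04) and Rps23 (0.04). Rpl22, known from mouse as dispensable for most cells because of its paralogue Rpl22l1, also varied little, from -0.36 in strain 38 to 0.40 in strain 2. Without the 4 arrays that stood apart, mean r was 0.11 for Rpl39l, 0.16 for Rpl23 and 0.08 for Rps2, and it stayed below 0 for Rpl22 (-0.07), Rpl34 (-0.04), Rpl3l (-0.13) and Rpl41 (-0.01).

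Co-variation went with the panel mean. Across the 74 member probes, r with the score of the other genes had a correlation of 0.69 with the panel mean, and of 0.70 over the 57 probes away from multiples of 8 (a description across probes, which share their arrays). The 42 probes called higher had a median r of 0.72 with that score, the 20 not called 0.34 and the 12 called lower 0.05. Exceptions lay on both sides. Rps25 had a mean of -0.55 and r = 0.56, and Rpl37 had a mean of 0.65 and r = 0.25.

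**Figure D3:**
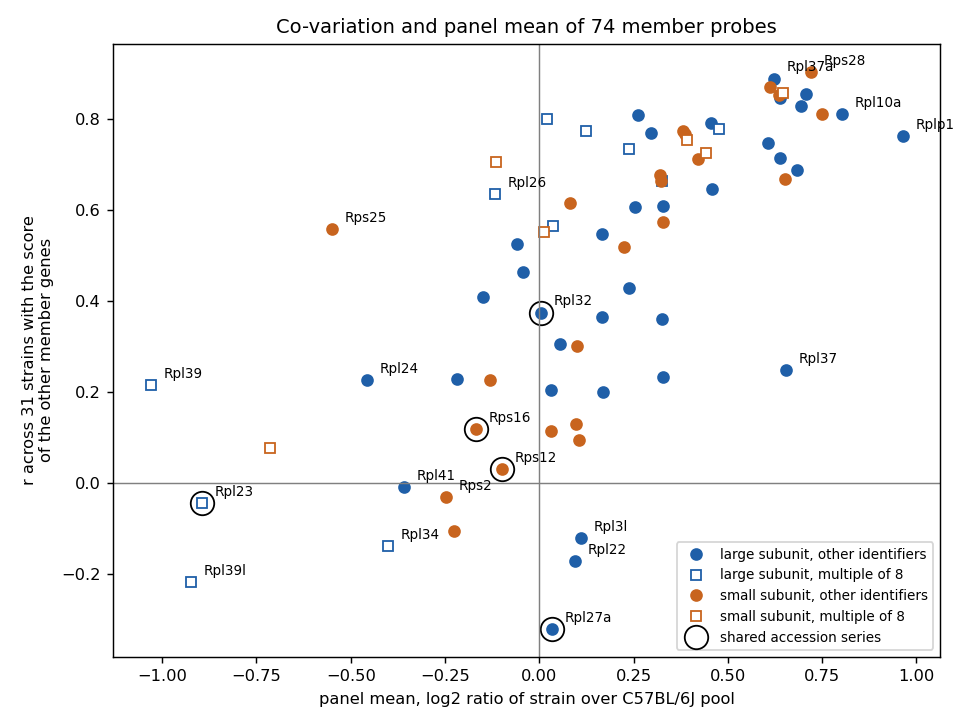
For each of the 74 member probes, the panel mean (x axis, log2 ratio) and Pearson r across 31 strains with the score of the other member genes (y axis). Probes with high means sit at high r, up to 0.90 for Rps28, the circled probes, whose accessions come from 1 numbered series, lie between -0.32 and 0.37, and open squares are probes at multiples of 8.

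Probes of 1 gene did not always measure the same movement. Among the 8 genes with 2 probes, Rpl35a (r = 0.52 between its probes), Rplp0 (0.30), Rps16 (0.27) and Rpl23 (0.15) had positive correlations, Rpsa (0.08) and Rps12 (-0.02) had values near 0, and Rps18 (-0.10) and Rpl27a (-0.50) had negative ones. In Rps18, probe 22594 was called higher (0.33 ± 0.05) and probe 10328, at a multiple of 8, lower (-0.71 ± 0.04). In Rps12, probe 18797 was higher at 0.32 ± 0.06 and probe 22823 lower at -0.10 ± 0.04. The 2 probes of Rpsa had 0.32 ± 0.04 with r = 0.67 with the score (probe 2981) and -0.23 ± 0.11 with r = -0.11 (probe 15398).

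Several of these second probes share an accession series. Many snoRNAs, which guide the modification of ribosomal RNA, are encoded in introns of ribosomal protein genes, and 5 member probes, 1 each for Rpl23, Rpl27a, Rpl32, Rps12 and Rps16, carry sequence accessions from 1 numbered series in which 8 of the 29 probes with a single gene are annotated to snoRNA or snRNA genes (examined after the values were seen). Their r with the score of the other genes was -0.04, -0.32, 0.37, 0.03 and 0.12, in that order of genes, with a median of 0.03, against a median of 0.61 for the other 69 member probes. Where the same gene had another probe, that one had r = 0.66 for Rpl27a and 0.68 for Rps12 and lower values, 0.23 and 0.10, for Rpl23 and Rps16. Which transcript these 5 probes detect was not tested.

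Paralogues with a symbol of their own behaved unlike one another. Rps27l, a p53-inducible paralogue of Rps27, was higher (0.39 ± 0.05, above 0 in 29 strains) and moved with the rest (r = 0.77 with the score of the others). Rpl3l, which replaces Rpl3 in striated muscle, was called higher at 0.11 ± 0.04, a call lost with place correction, and had r = -0.12, while Rpl3 itself had 0.03 ± 0.05 with no call and r = 0.21. Rpl39l, a paralogue of Rpl39 best known from testis, had -0.92 ± 0.10 at a multiple of 8, and -0.35 after place correction. Its 31 values ran from -1.47 in strain 5 through a median of -1.09 to 0.65 in strain 23, one of the arrays that stood apart, and only 4 strains were above 0. Its lowest pair correlations were with Rpl24 (-0.73), Rps21 (-0.64) and Rps3 (-0.61). Rps4l, which RefSeq lists as a transcribed pseudogene, had 0.10 ± 0.07 without a call, against 0.42 ± 0.05 for the X-linked Rps4x, called higher. The probes' sequences were not used here, so how far a probe binds the mRNA of its gene's paralogue was not tested.

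The whole group lay higher on the arrays of some strains than on others. With 1 array per strain, a difference between strains cannot be told apart from one between arrays. The score over all 66 members peaked in strain 15 (0.41), where 60 members exceeded their own median, followed by strain 5 (0.37, 54 members), strain 22 (0.30, 53) and strain 20 (0.23, 51). It was lowest in strain 12 (-0.25, 11 members above their median), followed by strain 40 (-0.24, 15), strain 14 (-0.24, 10), strain 21 (-0.22, 8) and strain 13 (-0.21, 8). In strain 13 none of the 25 small subunit genes was above its median, and in strain 15 24 of 25 were. The 5 lowest scores lie within 0.05 of each other and each strain has 1 array, so their order is not resolved. Strain 15 held the highest value of 14 member probes and strain 5 that of 13, while strain 40, whose array stood apart, held the lowest of 19.

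**Figure D4:**
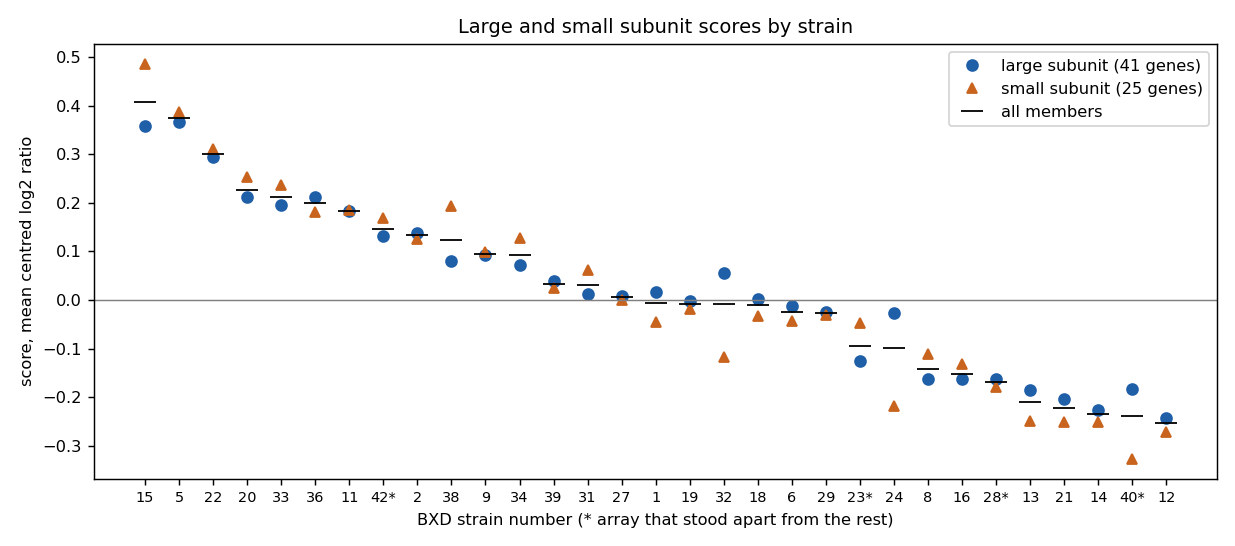
Score of the large subunit genes (circles), the small subunit genes (triangles) and all members (bars) by strain, ordered by the score over all members, with asterisks at the 4 arrays that stood apart. Both subunit scores fall along the order, from above 0.35 in strain 15 to below -0.24 in strain 12, and they part most in strain 24. The order is made from both scores, so part of this fall is built in.

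The large and small subunit scores followed each other closely, with Pearson r = 0.95 and Spearman rho = 0.95 over 31 strains, and r = 0.95 without the 4 arrays that stood apart. The scores rest on different probes of the same arrays and had the same sign in 27 of 31 strains. The large score minus the small score had an SD of 0.07 over strains, against 0.18 for the score itself. It was highest in strain 24, at 0.19 (large -0.03, small -0.22), and lowest in strain 15, at -0.13 (large 0.36, small 0.49). The score had r = 0.21 with an array's median correlation with the other arrays, and -0.22 over the 27 arrays that did not stand apart.

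**Figure D5:**
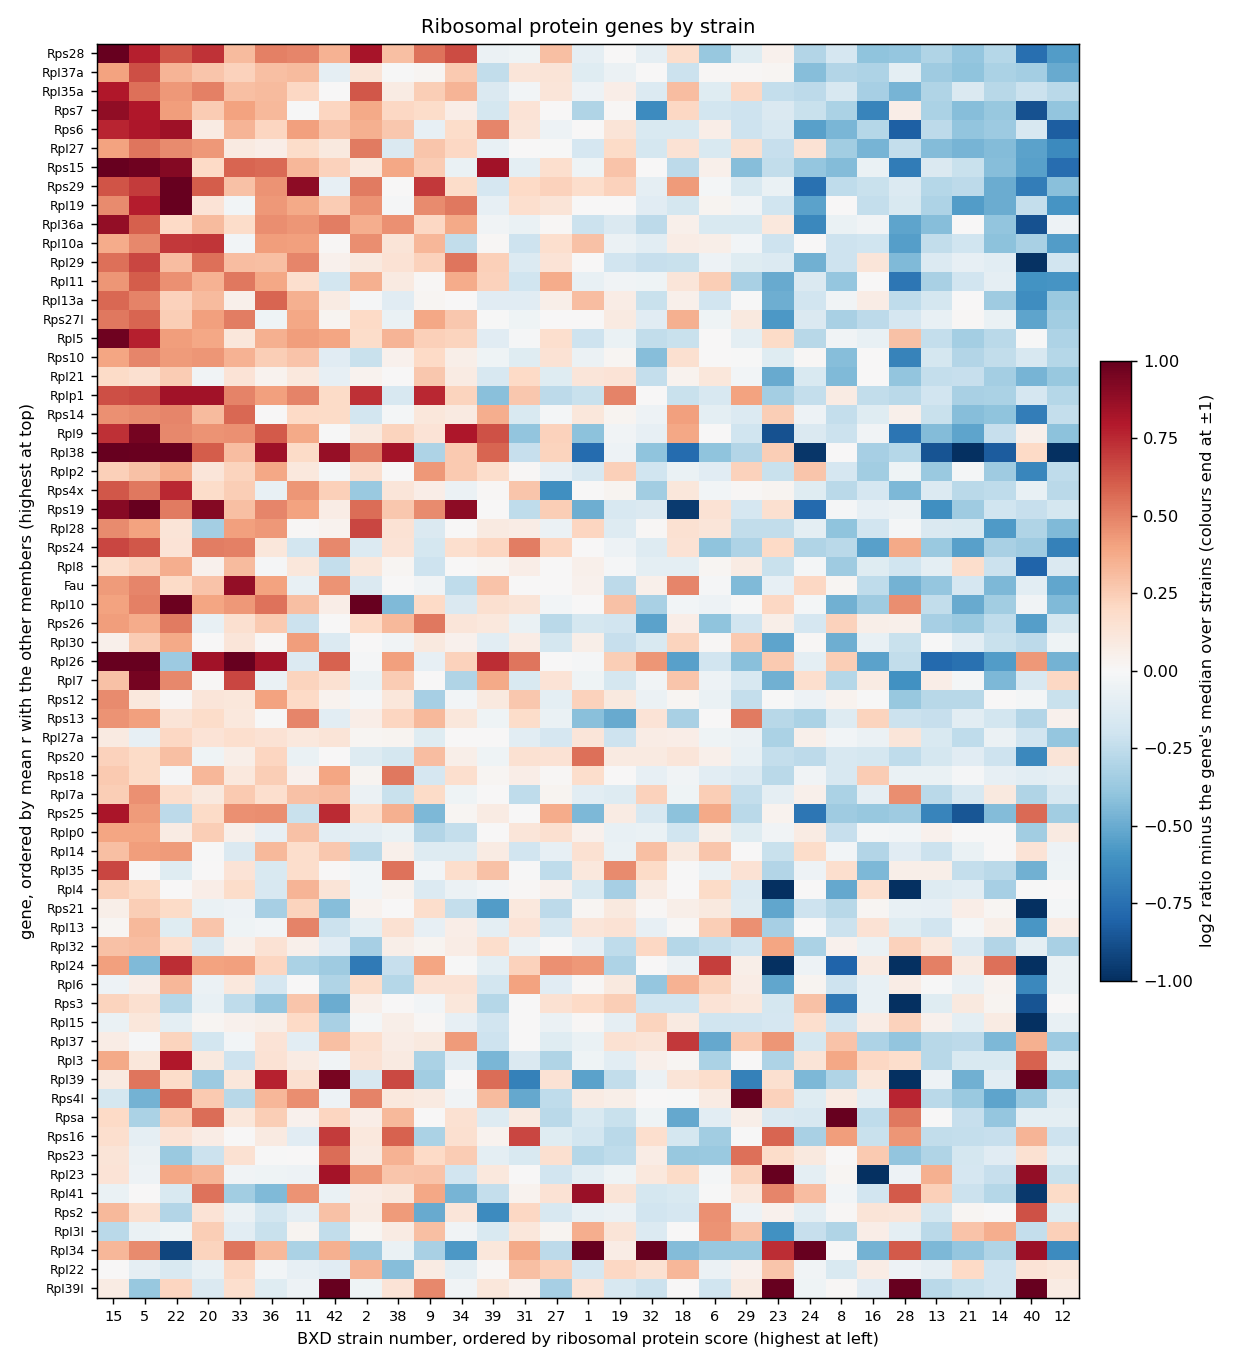
Values of the 66 member genes (rows, highest mean r with the others at the top) in 31 strains (columns, highest score at left), as log2 ratio minus the gene's median over strains, with colours ending at 1 and -1. The upper rows change from above to below their median along the order of strains, while the lowest rows, such as Rpl34, Rpl22 and Rpl39l, do not, and Rpl39l is high in strains 23, 28, 40 and 42. Rows and columns are ordered by these same values, so part of this pattern is built in.

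Markers of other cells were set beside this order. Of 7 listed markers of red cell precursors, 4 genes were measured, and the mean of their centred values had r = 0.74 with the ribosomal protein score (0.73 without the 4 arrays that stood apart). It lay between -0.34 and -0.06 in the 5 strains with the lowest ribosomal protein score and between 0.09 and 0.39 in the 4 with the highest. The 4 genes did not move together, with a mean r of -0.03 among them. The alpha globin Hba-a1 had r = 0.66 with the score, the band 3 anion exchanger Slc4a1 0.33, the erythroid haem enzyme Alas2 0.19 and Epb42 0.11. The part of red cells in the members' movement was not tested. The other marker lists had correlations with the score between -0.27 (adipose) and 0.35 (stellate cells), with 0.28 for Kupffer cells and macrophages, 0.12 for hepatocytes and -0.16 for proliferation.

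Other parts of the translation machinery were called in both directions. Of 33 probes of initiation factors 15 were higher and 9 lower, of 19 probes of elongation and release factors 8 and 5, of 58 probes of ribosome assembly factors 23 and 19, of 31 probes of other TOP mRNAs 11 and 14 and of 26 probes of TOR, Myc and La regulators 9 and 13. For mitochondrial ribosomal proteins it was 35 and 16 of 72. The lists overlap, so some probes were counted in more than 1 of them. Among the other TOP mRNAs are Eef2, Eef1a1, Eif3h and Npm1, each also in another list, and Eif4ebp1 and Eif4ebp2 are both initiation factors and regulators. Against the shares of 37.4% and 37.6% of all probes, initiation factors had 45.5% higher and 27.3% lower, and the other TOP mRNAs 35.5% and 45.2%.

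The scores of these lists had correlations with the ribosomal protein score of 0.65 for initiation factors, -0.01 for elongation and release factors, 0.47 for assembly factors, 0.25 for other TOP mRNAs and 0.31 for regulators, beside 0.66 for mitochondrial ribosomal proteins, 0.65 for the proteasome and 0.71 for oxidative phosphorylation. Within the lists, mean r between members was at most 0.04 for the translation factors, assembly factors, TOP mRNAs and regulators. The members of each list with the highest r with the ribosomal protein score were, by the mean of each gene's probes, the initiation factors Eif2s3x (r = 0.64), Eif4ebp1, the inhibitor of Eif4e that TOR inactivates (0.57), and Eif3k (0.54), the elongation factors Eef1a2 (0.60), Eef2 (0.27) and Eef1a1 (0.16), nucleolin, Ncl (0.64), Sbds, which frees the large subunit for joining (0.62), and Gtpbp4 (0.57), the nascent chain protein Naca (0.63) and the poly(A)-binding Pabpc1 (0.46), and the regulators Tsc2 (0.57) and Yy1 (0.56).

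Probes of 1 gene differed in this. The initiation factor Eif2s3x had r = 0.69 at probe 997 and -0.01 at probe 8501. Probes of 1 elongation factor differed as well. Eef1a1 had r = 0.70 at probe 7718 and -0.49 at probe 19237, Eef1a2 0.77 at probe 3875 and -0.08 at probe 16750, and Eef2 0.59 at probe 15396 and values of -0.02 and -0.03 at the other two, so the gene means and the list's correlation rest on averages of unlike probes.

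Several genes of these lists had lower panel means. Npm1, the nucleolar chaperone of ribosome assembly and a TOP mRNA, had -1.09 ± 0.07 and r = -0.42 with the score, the histone chaperone Nap1l1 -1.55 ± 0.09 and the small subunit assembly factor Ltv1 -1.41 ± 0.07, each called lower and away from multiples of 8. Ssb, the La protein, stood at -0.73 ± 0.04, below 0 in all strains. At multiples of 8, place correction ended some lower calls, such as those of Eif3b (-0.52 as deposited, 0.05 corrected) and Wdr12 (-0.51 and 0.06). Others became higher calls, such as Eif3i (-0.27 and 0.31) and Mrpl1 (-0.37 and 0.20). The lower calls at such places named next held but were smaller. For Eef1b2, 1 probe there had -0.96 ± 0.07 as deposited and -0.39 corrected, while its other probe, elsewhere, was called higher (0.28 ± 0.04). Eif3h had -0.97 ± 0.17 and -0.39 corrected, Mrpl55 -1.27 ± 0.07 and -0.69, and Mrpl30 -1.08 ± 0.10 and -0.50. At such a place 1 probe of Sp1 had -0.79 ± 0.05 and -0.21 corrected, and its other probe had 0.10 ± 0.03, called higher as deposited, and 0.06 with no call when corrected. Eif4ebp1, also at a multiple of 8, was higher both ways (0.61 ± 0.08 and 1.19). Eef1a1, which carries aminoacyl-tRNA to the ribosome, was higher at one probe (0.57 ± 0.09) and lower at another (-0.54 ± 0.09).

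Outside the members, the named genes whose pattern over the 31 strains was most like the score were Egfr (r = 0.90), Tcl1b3 (0.88), the mitochondrial ribosomal protein gene Mrpl39 (0.87), the complex I subunit gene Ndufb2 (0.84), Ddt (0.84), Src (0.83), Pkib (0.83) and Lcn5 (0.82), each from 1 probe. Without the 4 arrays that stood apart they had r between 0.82 and 0.92. The lowest were Zfp930 (-0.77), Hoxa11 (-0.74), Abhd18 (-0.73) and Ppp1r3f (-0.72). They were picked as the extremes over 31 arrays of the 15029 genes, after some symbols were set aside. These were symbols of clones, predicted genes and pseudogenes and any further symbols that begin with Rpl or Rps.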

How the data were processed

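The authors deposited normalized ratios, read as log2, of 31 arrays, for which the submitters' processing notes name limma and R 2.0.0. For the log base, the direction and the background and normalization steps, details are not given in the sources consulted. No intensities were used. Genes were named from the platform annotation, with symbols brought up to date through gene IDs in RefSeq's GRCm38.p6 table, in which no match was found for Rpl5 and 1 Rplp0 probe. The mean over strains was tested with limma 3.58.1 in R 4.3.3 (lmFit and eBayes on an intercept, two-sided, adjusted over 21765 probes), tested on simulated data first. Spread, correlation and scores are descriptions over genes whose probes were averaged. Named genes are the extremes of panel mean, SD and correlation, members with 2 probes, paralogues, stalk proteins, Rpsa, Fau and Rps6, up to 3 genes per list by correlation and 2 by mean, and the 12 genes outside the members most like or unlike the score; others were chosen after their values were seen. Members and lists were chosen with earlier results of these data known. Alternatives were place correction, leaving out strains or probes, centring, moderation and the measure of correlation.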

Additional observations from a re-analysis of the deposited data

How the results depend on the processing

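Each strain has 1 array, so an extreme value has no replicate check, and without intensities signal over background is unknown. Of the 74 member probes, 42 were called higher and 12 lower; counts of higher calls stayed between 36 and 48 in all alternatives except the test of a mean beyond 0.2 (35 members called, 6 of them lower, and 78 of 219 probes of the other translation lists, which had 162). Without probes at multiples of 8, 7 of 57 members were lower. The other 5 lower calls were at the places left out, where 84.1% of all probes were lower. Place correction turned Rps24 to 0.46, Rpl26 to 0.46 and Rpl34 to 0.17, and with strains 23, 28, 40 and 42 also left out to 0.50, 0.50 and 0.18. It also ended the calls of Rpl3l and Rpl22 and added lower calls for Rpl7a, Rps3, Rpl23 and Rpsa, as given above. Without strains 23, 28, 40 and 42 alone, Rpl4 (-0.08) and probe 22823 of Rps12 (-0.08) lost their calls and 3 other member probes gained one. This gave 44 higher and 11 lower. Mean pairwise r was 0.27, between 0.25 and 0.30 in all alternatives, among them Spearman rho (0.28), removal of the first principal component of all genes (0.30) and, added after seeing the data, leaving out the 5 probes of 1 accession series (0.28). Leaving out each strain in turn gave 53 to 56 called members, 42 to 43 higher and 11 to 13 lower, 158 to 167 called probes of the other lists, a median SD of 0.31 to 0.33, mean r of 0.25 to 0.28 and a range of scores of 0.63 to 0.66. Calls changed for Rpl34, Rpsa and Rpl23 as given above, Rpl4 (lost without strain 23), Rps24 (lower without strain 15, -0.14), Rps3 (lower without any 1 of 11 strains, -0.14) and Rps21 (higher without strain 40, 0.15). The causes were not tested. Strain 15 had the highest score in every alternative but the median over members, where strain 5 had (0.41), and where strain 15 itself was left out; strain 12 had the lowest in most, strain 40 with place correction (-0.35), without probes at multiples of 8 (-0.33) and without strain 12, and strain 14 with the median (-0.26). No paired analysis was possible because the arrays form 1 group.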

Other observations

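Probes related to ribosomal proteins that fell outside the rule also gave values. Rpl36al, a paralogue of Rpl36a, had a panel mean of 0.48 ± 0.05 and r = 0.79 with the ribosomal protein score, Rpl22l1 had 0.27 ± 0.06 and 0.65, and Rpl7l1 had -0.04 ± 0.04 and -0.01. The probe shared by Rpl36 and a pseudogene had 0.25 ± 0.06 and r = 0.72. The probe shared by Rpl12 and the snoRNA gene Snora65 had -0.42 ± 0.05, lay below 0 in all strains and had r = 0.17. Rps3a1, the small subunit gene with a symbol the rule does not take in, had -0.10 ± 0.06 with no call and r = 0.23. The pseudogene probes Rpl29-ps1 and Rpl30-ps2 had 0.45 ± 0.06 and -0.08 ± 0.04, with r = 0.28 and 0.54. Of the 80 proteins of the mammalian ribosome, 62 had a member probe, 39 of 47 in the large and 23 of 33 in the small subunit.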
